A study of Homo sapiens with 6 samples.

Results

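The 53 genes described here encode the lysosome's acid hydrolases, the proton pump that acidifies it, some of its membrane and lipid transport proteins and 3 transcription factors, out of 19775 genes read in MM1S cells. MM1S is an established line grown from a human multiple myeloma, the malignancy of plasma cells. The genes were chosen by symbol: 25 were found by a symbol that starts with ATP6V or ATP6AP, and 28 came from a list of 29 lysosomal genes. GLB1 of that list, and the pump genes ATP6V1F and ATP6V0A4, have no probe set with their symbol alone and are not analysed here. RNA was read on 6 single-colour arrays, 3 of MM1S cells in hypoxia and 3 of MM1S cells in normoxia. The treatment text names 24 h of hypoxia and stands on all 6 arrays. The labels do not give the oxygen level or how the normoxia cells were handled, and they do not say whether the 3 arrays of a group were separate cultures, so the p-values rest on the spread between arrays, which may be technical. Levels are linear intensities as deposited, and changes are differences of log2(intensity + 16), hypoxia minus normoxia. Adding 16 makes the changes of dim genes look smaller than they are. A gene is called changed at an adjusted p under 0.05 in limma with Benjamini-Hochberg adjustment over all 19775 genes.

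Lysosomes digest proteins, lipids, glycans and glycogen that reach them by endocytosis and autophagy. Their hydrolases work at acid pH, which is set by the vacuolar H+-ATPase, a rotary pump whose V1 sector splits ATP in the cytosol and whose V0 sector carries protons across the membrane. TFEB, TFE3 and MITF are related transcription factors that bind an E-box motif, the CLEAR element, in the promoters of many lysosomal genes, and they are held in the cytosol by active mTORC1. Plasma cells secrete large amounts of protein and rely on lysosomes and autophagy alongside the proteasome.

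Array medians were 54.95 to 60.13. Pearson's r of log2(intensity + 16) over all probe sets, which do not vary independently, was 0.988 to 0.993 between arrays of a group and 0.962 to 0.968 between arrays of different groups. HILPDA, a hypoxia-induced lipid droplet gene, was at 6052 ± 69.7 in hypoxia and 492 ± 47.2 in normoxia (SD, n = 3 each). All 8 plasma cell markers lay above the lowest array median in both groups, and their summed intensity was 44171 to 46114 in hypoxia and 43409 to 45403 in normoxia. Of these 8, XBP1 (0.22) and POU2AF1 (0.19) rose and SDC1 (-0.30), SLAMF7 (-0.34) and CD38 (-0.71) fell. Of 6 myeloid markers, which would mark the macrophage lineage with its many lysosomes, 2 lay above that median in either group. The 6 lay at 6.85 to 80.2 in hypoxia and 6.34 to 76.2 in normoxia. Their summed intensity was 197 to 250 in hypoxia and 180 to 190 in normoxia, with no overlap. CD14 and LYZ were at 6.85 and 12.1 in hypoxia and at 6.34 and 14.7 in normoxia. CD163 and MARCO, both below the array medians, rose by 0.60 (limma adjusted p = 0.0447) and 0.37 (limma adjusted p = 0.0268). Summed intensities overlapped between the groups for 3 B cell markers (399 to 450 in hypoxia and 402 to 414 in normoxia), 3 T cell markers (205 to 248 in hypoxia and 195 to 267 in normoxia) and 7 stromal and epithelial markers (456 to 605 in hypoxia and 485 to 535 in normoxia). Within those lists single markers moved. Of the B cell markers PAX5 rose, with 303 ± 21.0 in hypoxia and 85.8 ± 2.37 in normoxia (1.65, limma adjusted p = 4.12e-05), MS4A1 fell, with 66.9 ± 9.99 in hypoxia and 246 ± 1.95 in normoxia (-1.67, limma adjusted p = 8.84e-05), and CD22 was at -0.20 and did not pass. Of the T cell markers CD3D rose by 0.38 (limma adjusted p = 0.0370), and of the stromal and epithelial ones EPCAM rose by 1.03 (limma adjusted p = 0.000995). The part of these markers in the results below was not tested.

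As a whole the lysosomal genes moved in both directions and by modest amounts. Of the 53 genes, 17 rose, 11 fell and 25 did not pass, so that 52.8% were called against 37.4% of all genes. By direction, 32.1% of the lysosomal genes rose against 16.9% of all genes, and 20.8% fell against 20.6%. Dim genes, with a mean below the lowest array median in both groups, were 3 of the 53, against 7239 of all 19775. When genes whose mean was below 64 in both groups were left out before the fit, 34 of 49 lysosomal genes (69.4%) and 64.8% of all genes were called. The median change was 0.072 over the 53 genes and -0.00016 over all genes. The arrays of the groups did not overlap for 36 of the 53 genes (67.9%), against 47.9% of all genes. The number that rose was 10 without normoxia array 1 and 11 without hypoxia array 2. Over all genes, leaving out each array gave 2771 to 3291 risen genes, against 3335 with all arrays. Since whole cultures were read, a shift in the share of cells in some state and a change of RNA per cell cannot be told apart.

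**Figure D1:**
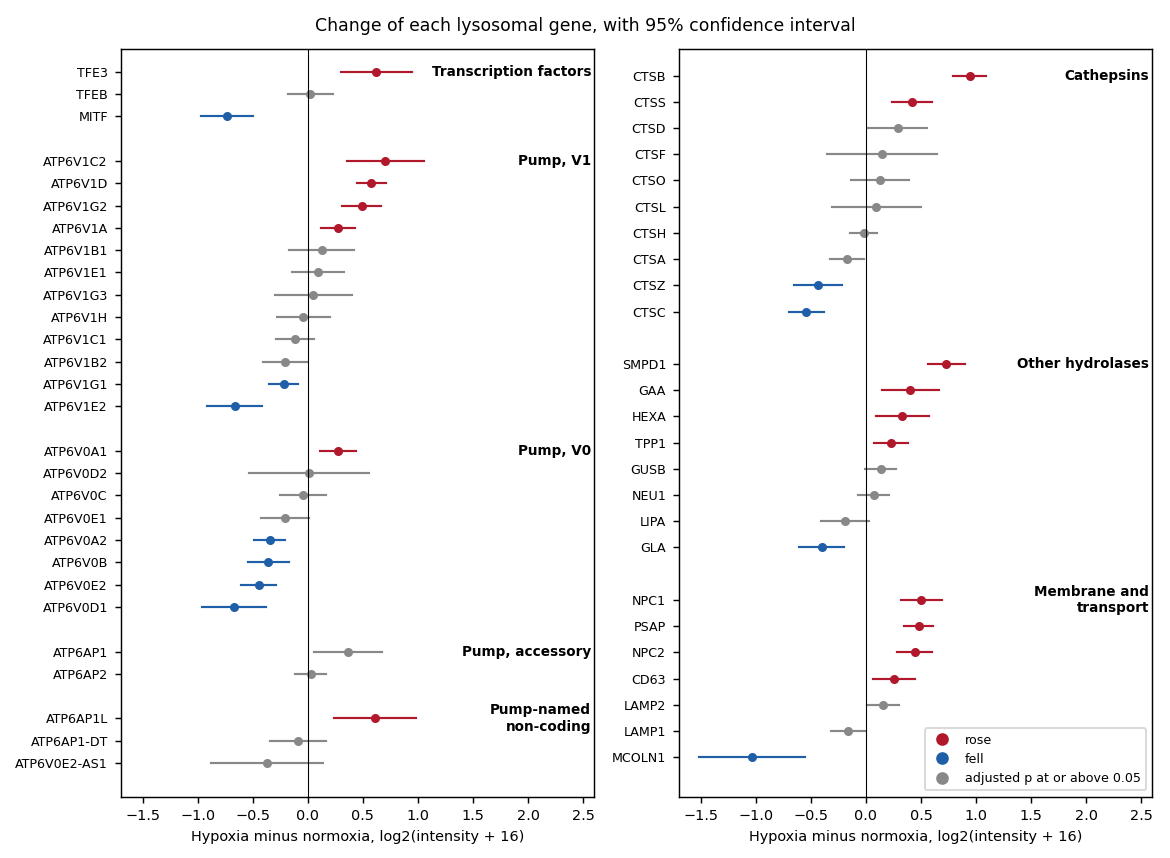
Change of log2(intensity + 16), hypoxia minus normoxia (x axis), of each of the 53 lysosomal genes by class, with points for the limma estimate and bars for its 95% confidence interval. Genes that rose are red, genes that fell are blue and the others grey; the values run from -1.03 (MCOLN1) to 0.94 (CTSB).

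The 3 transcription factors that drive lysosomal genes did not move as one. TFE3 gave intensities of 2311, 2032 and 2074 on hypoxia arrays 0, 1 and 2, against 1660, 1209 and 1314 on the normoxia arrays. All 3 hypoxia arrays lay above all normoxia arrays, and TFE3 rose by 0.62 (95% confidence interval 0.30 to 0.95, limma adjusted p = 0.0123). MITF, best known from pigment cells and osteoclasts, gave 150, 170 and 185 in hypoxia, against 315, 285 and 273 in normoxia. Its groups did not overlap either, and it fell by 0.73 (-0.97 to -0.50, limma adjusted p = 0.00169). TFEB gave 226, 265 and 255 in hypoxia and 238, 234 and 260 in normoxia. Its arrays overlapped, with a change of 0.022 (-0.18 to 0.22, limma adjusted p = 0.875). The rise of TFE3 rests on its brightest probe set: its other 3 were at 0.049 to 0.46 and did not pass, and the mean over all 4 was at 0.34 (limma adjusted p = 0.112). For MITF another probe set fell as well, by 0.67.

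Promoter sequence was looked up for these genes, since the 3 factors bind a common motif. RefSeq promoter windows (GRCh38.p14, 250 bases before to 50 from the start) were found for 39 of the 53 genes. The E-box core CACGTG, which reads the same on both strands, was present in a window of 12 of these 39 genes (30.8%) and of 10.9% of all 15384 genes with a window. The longer TCACGTGA, which contains that core and also reads the same on both strands, was present for 6 of 39 (15.4%) and for 1.66% of all genes. The 5-base core of the hypoxia response element, ACGTG on either strand, is part of CACGTG. Outside it, ACGTG was found for 9 of 39 (23.1%) and for 20.8% of all genes. Lysosomal genes had 1.51 windows each and all genes 1.40, and a gene was counted once if any of its windows held the motif. CTSD, CTSF and NEU1, which did not pass, and CD63, which rose, hold shorter forms of TCACGTGA and are not printed. The windows below are those with TCACGTGA, together with the pump genes ATP6V0B and ATP6V0E2, which also hold a shorter form. Each is given 5′ to 3′ on the gene's strand, with the core and any flanking T or A of the longer motif in capitals. Of the 6 genes with TCACGTGA, 1 rose (GAA), 3 fell (MCOLN1, ATP6V0D1 and ATP6V1G1) and 2 did not pass (CTSA and LAMP1).
MCOLN1, chr19:7522524-7522623, plus strand: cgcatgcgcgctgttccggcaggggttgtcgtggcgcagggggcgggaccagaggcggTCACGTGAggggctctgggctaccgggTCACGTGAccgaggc
ATP6V0D1, chr16:67481163-67481262, minus strand: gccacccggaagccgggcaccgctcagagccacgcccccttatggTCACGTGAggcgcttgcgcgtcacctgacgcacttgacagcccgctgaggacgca
ATP6V1G1, chr9:114587665-114587764, plus strand: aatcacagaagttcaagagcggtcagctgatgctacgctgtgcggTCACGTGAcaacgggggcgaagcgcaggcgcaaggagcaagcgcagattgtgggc
ATP6V0B, chr1:43974856-43974955, plus strand: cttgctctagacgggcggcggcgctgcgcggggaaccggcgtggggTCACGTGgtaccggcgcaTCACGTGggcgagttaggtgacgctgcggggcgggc
ATP6V0E2, chr7:149872849-149872948, plus strand: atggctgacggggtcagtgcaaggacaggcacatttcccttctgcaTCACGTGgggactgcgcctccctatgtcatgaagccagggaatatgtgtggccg
GAA, chr17:80101459-80101558, plus strand: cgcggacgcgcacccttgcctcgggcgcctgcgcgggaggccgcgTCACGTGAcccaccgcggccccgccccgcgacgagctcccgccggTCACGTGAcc
CTSA, chr20:45891235-45891334, plus strand: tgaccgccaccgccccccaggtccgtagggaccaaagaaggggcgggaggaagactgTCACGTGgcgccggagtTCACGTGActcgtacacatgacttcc
LAMP1, chr13:113297139-113297238, plus strand: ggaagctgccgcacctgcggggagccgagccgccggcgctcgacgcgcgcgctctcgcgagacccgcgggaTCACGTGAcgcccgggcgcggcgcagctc

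The first TCACGTGA of these windows began 26 to 77 bases before the start, nearest for CTSA and farthest for GAA. Of the 12 lysosomal genes with CACGTG, 2 rose (GAA and CD63), 5 fell (MCOLN1, ATP6V0D1, ATP6V0E2, ATP6V0B and ATP6V1G1) and 5 did not pass (LAMP1, CTSA, CTSD, CTSF and NEU1). The calls of both risen genes and of ATP6V1G1 depend on single arrays. Without any one of 4 arrays that of GAA was lost, for CD63 any one of 5, and for ATP6V1G1 any one of 4. Those of MCOLN1, ATP6V0D1, ATP6V0E2 and ATP6V0B were kept under each of the 14 alternatives. Of the 27 genes without CACGTG, 9 rose, 5 fell and 13 did not pass. The 14 genes without a window could not be classed. They include CTSB, CTSS, PSAP, HEXA, ATP6V1A and ATP6AP1L, which rose, and ATP6V1E2, which fell. Over all genes with a window, 18.4% of those with CACGTG rose and 30.5% fell, and 17.3% of those without it rose and 20.9% fell. No test was made of these shares. A match of letters is a description of the window and no evidence of binding.

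The genes of the proton pump moved in both directions. Of its 22 protein-coding genes found by symbol, 5 rose (22.7%), 6 fell (27.3%) and 11 did not pass, with a median change of -0.016. Over all genes, 16.9% rose and 20.6% fell. Dim genes were 1 of the 22, against 7239 of all 19775, so these shares are not over genes of like brightness. Without genes below 64 in both groups, 64.8% of all genes were called. The pump's counts therefore do not set it apart from other genes. Among 12 genes of the V1 sector, 4 rose and 2 fell, with a median of 0.071. Among 8 genes of the V0 sector, 1 rose and 4 fell, with a median of -0.28. TCIRG1, a form of the V0 a subunit that the symbol rule does not reach, rose by 0.81 and is not in these counts. No test was made between the sectors, and neither was set against genes of like brightness.

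In V1, ATP6V1D, a subunit of the central rotor stalk, gave 3300, 3423 and 3396 in hypoxia, against 2212, 2225 and 2333 in normoxia. Its groups lay far apart for their spread, and it rose by 0.58 (95% confidence interval 0.44 to 0.71, limma adjusted p = 0.000482). Of its other 3 probe sets, 1 rose by 0.51 and 2 did not pass (0.33 and -0.22), and the average of all 4 was at 0.30 (limma adjusted p = 0.0162). ATP6V1A, the subunit that binds and splits ATP, rose by 0.27, with 4123 ± 165 in hypoxia and 3409 ± 132 in normoxia (limma adjusted p = 0.0164). Its call was lost without normoxia array 1 or 2 (limma adjusted p = 0.0580 and 0.0623). The partner of ATP6V1A in the catalytic ring, ATP6V1B2, did not pass, at 908 ± 44.8 in hypoxia and 1053 ± 83.3 in normoxia (-0.21, 95% confidence interval -0.41 to -0.0082, with a limma adjusted p above 0.05). ATP6V1G1, a subunit of the peripheral stalks, fell by 0.22, with 7240, 7193 and 7209 in hypoxia against 8534, 8167 and 8516 in normoxia (limma adjusted p = 0.0195). All its hypoxia arrays lay below its normoxia arrays, but the call was lost without hypoxia array 1 or 2 or normoxia array 0 or 2, at limma adjusted p = 0.0573 to 0.0708. Its other, dimmer probe set fell by 0.76, and their average was at -0.49 (limma adjusted p = 0.00109).

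The other V1 genes that passed were dimmer and encode forms known mainly from particular tissues. ATP6V1C2, a form of the C subunit known from kidney and lung, gave 111, 136 and 115 in hypoxia, against 83.8, 55.8 and 66.0 in normoxia (log2 change 0.70, limma adjusted p = 0.0100). ATP6V1G2, a form known from neurons, gave 98.3, 95.9 and 109 in hypoxia, against 70.9, 63.7 and 67.6 in normoxia (0.49, limma adjusted p = 0.00267). In normoxia both stood little above the array medians, and the call of ATP6V1C2 was lost when its probe sets were averaged (0.23, limma adjusted p = 0.282). ATP6V1E2, known from testis, fell by 0.66, with 109, 143 and 127 in hypoxia against 219, 204 and 202 in normoxia (limma adjusted p = 0.00325), and its other probe set fell by 0.70. The V1 genes ATP6V1B1, ATP6V1C1, ATP6V1E1, ATP6V1G3 and ATP6V1H did not pass, at changes of -0.12 to 0.13. Another probe set of ATP6V1C1 fell by 0.99, and the average of its probe sets was at -0.43 (limma adjusted p = 0.0114).

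In V0, ATP6V0D1, which couples the rotor to the proteolipid ring, changed the most. It gave 958, 772 and 743 in hypoxia, against 1425, 1289 and 1223 in normoxia, with no overlap (-0.67, 95% confidence interval -0.96 to -0.38, limma adjusted p = 0.00598). ATP6V0E2, a form of the small e subunit, gave 1462, 1355 and 1416 in hypoxia, against 1928, 1838 and 2024 in normoxia (-0.45, limma adjusted p = 0.00266). ATP6V0B, a subunit of the proteolipid ring, gave 4398, 3889 and 4048 in hypoxia, against 5625, 5116 and 5087 in normoxia (-0.36, limma adjusted p = 0.0125). The arrays of the groups did not overlap for any of these 3 genes. The main proteolipid gene ATP6V0C did not pass, at -0.044 with 2659 ± 129 in hypoxia and 2747 ± 238 in normoxia. ATP6V0E1, the broadly expressed e subunit, did not pass on its brightest probe set (-0.21, limma adjusted p = 0.130), while 4 of its other 6 fell and the mean over all 7 was at -0.43 (limma adjusted p = 0.00222). ATP6V0D2, known from osteoclasts, did not pass, at 78.3 ± 20.8 in hypoxia and 77.3 ± 18.1 in normoxia (0.0087, limma adjusted p = 0.983). ATP6V0C, ATP6V0E1, ATP6V1E1 and ATP6V1G1 have annotated pseudogenes, and how far those contribute to their signal was not tested.

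The forms of the large a subunit, which carries the proton path and steers the pump to different membranes, went different ways. ATP6V0A1 rose by 0.27, with 1474, 1641 and 1646 in hypoxia against 1320, 1316 and 1288 in normoxia (limma adjusted p = 0.0203). Without any one array other than hypoxia array 0 its call was lost, at limma adjusted p = 0.0518 to 0.0726. ATP6V0A2 fell by 0.35, with 255, 253 and 242 in hypoxia against 326, 330 and 309 in normoxia (limma adjusted p = 0.00463). Of the other 5 probe sets of ATP6V0A2, 2 fell, by 1.50 and 0.88, and 3 did not pass. TCIRG1, the a3 form of lysosomes and osteoclasts, which the symbol rule does not reach, gave 2166, 2005 and 2041 in hypoxia, against 1278, 1067 and 1193 in normoxia (0.81, limma adjusted p = 0.000675).

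**Figure D2:**
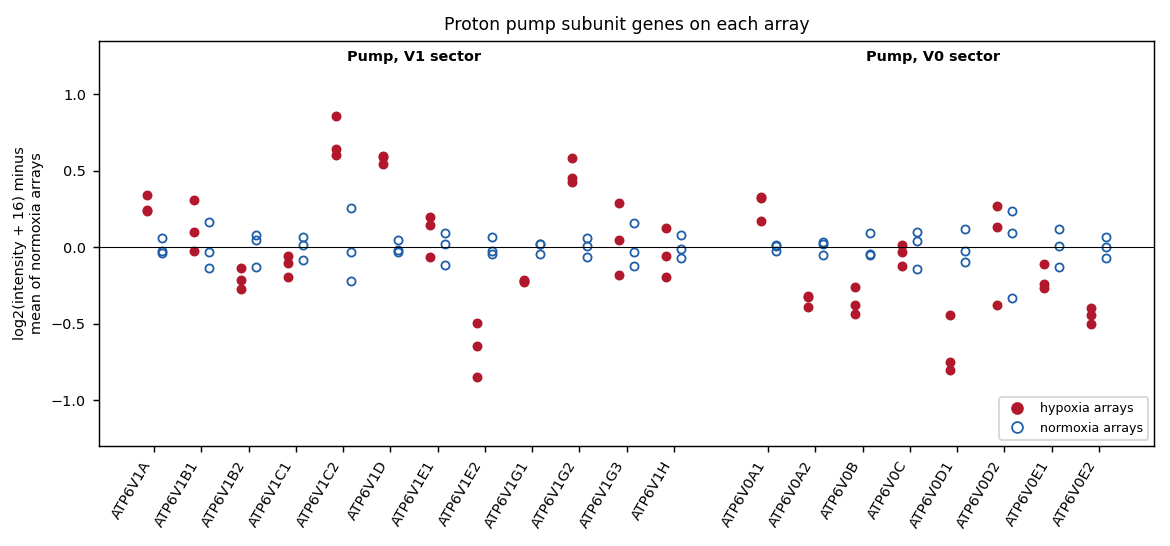
Proton pump genes of the V1 and V0 sectors on each array, as log2(intensity + 16) minus the mean of the 3 normoxia arrays (y axis), with filled points for hypoxia and open points for normoxia arrays. ATP6V1D and ATP6V0D1 lie apart in opposite directions (0.58 and -0.67), and ATP6V0C and ATP6V1H overlap. TCIRG1 is not shown.

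Neither accessory subunit passed. ATP6AP1, which takes part in pump assembly, was at 1778 ± 162 in hypoxia and 1384 ± 202 in normoxia with no overlap (0.36, limma adjusted p = 0.0695). Without genes below 64 in both groups, the limma adjusted p of ATP6AP1 was 0.0323. ATP6AP2, the prorenin receptor, was at 0.026 (limma adjusted p = 0.781). The symbol rule also found 3 loci that encode no pump protein in RefSeq. ATP6AP1L, a transcribed pseudogene, gave 117, 182 and 143 in hypoxia, against 83.7, 97.0 and 88.5 in normoxia (0.61, limma adjusted p = 0.0227). Its call was lost without hypoxia array 2 or any of the normoxia arrays (limma adjusted p = 0.0502 to 0.0734), and the average of its probe sets was at 0.23 (limma adjusted p = 0.0421). The long non-coding RNAs ATP6AP1-DT and ATP6V0E2-AS1 did not pass, at -0.089 and -0.37.

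Among the cathepsins, the proteases of the lysosome, 1 rose and 1 fell with every one of its probe sets. CTSB, a cysteine protease, gave 3641, 3489 and 3509 in hypoxia, against 1920, 1751 and 1845 in normoxia. The hypoxia arrays stood at 1.93 times the normoxia mean (0.94, 95% confidence interval 0.79 to 1.09, limma adjusted p = 0.000123). All 5 probe sets of CTSB rose, by 0.38 to 0.94. CTSC, also called dipeptidyl peptidase I, which activates granule serine proteases, gave 2591, 2873 and 2834 in hypoxia, against 3973, 3981 and 4133 in normoxia (-0.54, -0.70 to -0.38, limma adjusted p = 0.00118). All 4 probe sets of CTSC fell, by 0.54 to 1.11, the brightest the least, and their average was at -0.91.

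CTSS, a cysteine protease that trims the invariant chain of antigen-presenting molecules, gave 2432, 2529 and 2514 in hypoxia, against 1860, 1727 and 2008 in normoxia (0.42, limma adjusted p = 0.00574). CTSZ, a carboxypeptidase, read low, with 53.5, 49.6 and 63.8 in hypoxia and 83.9, 77.1 and 80.0 in normoxia (-0.43, limma adjusted p = 0.0110). Its groups did not overlap, but the call was lost when its 2 probe sets were averaged (-0.13, limma adjusted p = 0.656). Of the 10 cathepsins, 2 rose (20.0%), 2 fell (20.0%) and 6 did not pass, against 16.9% risen and 20.6% fallen of all genes. Their median change was 0.11. CTSD, the main aspartic protease of lysosomes, was at 345 ± 42.5 in hypoxia and 279 ± 22.7 in normoxia (0.29, limma adjusted p = 0.0895). CTSA, a carboxypeptidase that also protects other lysosomal enzymes, was at 1206 ± 41.7 in hypoxia and 1365 ± 61.1 in normoxia (-0.18, limma adjusted p = 0.0763). Without genes below 64 in both groups, the limma adjusted p was 0.0423 for CTSD and 0.0287 for CTSA. CTSF, CTSO, CTSL and CTSH were at changes of -0.020 to 0.15. CTSL lay below the array medians in both groups, at 12.5 ± 3.13 in hypoxia and 10.9 ± 5.47 in normoxia.

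Among the other hydrolases, 4 of 8 rose, 1 fell and 3 did not pass, with a median change of 0.18. SMPD1, acid sphingomyelinase, which turns sphingomyelin into ceramide, gave 447, 448 and 446 in hypoxia, against 285, 247 and 260 in normoxia (0.73, 95% confidence interval 0.56 to 0.90, limma adjusted p = 0.000464). The hypoxia arrays were nearly equal and all above normoxia, but the other 3 probe sets of SMPD1 were dimmer and did not pass, and the mean over all 4 was at 0.12 (limma adjusted p = 0.209). GAA, acid alpha-glucosidase, which breaks down glycogen in lysosomes, gave 106, 127 and 128 in hypoxia, against 77.3, 87.8 and 96.2 in normoxia (0.40, limma adjusted p = 0.0273). HEXA, a subunit of beta-hexosaminidase, gave 1608, 1822 and 1864 in hypoxia, against 1265, 1419 and 1519 in normoxia (0.33, limma adjusted p = 0.0414). TPP1, a tripeptidyl peptidase, was at 2069 ± 55.0 in hypoxia and 1764 ± 82.6 in normoxia (0.23, limma adjusted p = 0.0310; 0.60 when its probe sets were averaged). The groups did not overlap for any of these genes, but the calls of GAA, HEXA and TPP1 were each lost without any one of 4 of the 6 arrays. All 3 were lost without hypoxia array 1, hypoxia array 2 or normoxia array 1, at limma adjusted p = 0.0747 to 0.123. Without normoxia array 0 those of GAA and HEXA were lost (limma adjusted p = 0.0743 and 0.101), and without normoxia array 2 that of TPP1 (0.0792). Without those hypoxia arrays or normoxia array 1, SMPD1 was left as the only one of the 4 that rose.

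GLA, alpha-galactosidase A, which removes galactose from glycolipids, was the hydrolase that fell. It gave 1319, 1540 and 1517 in hypoxia, against 1831, 1983 and 1978 in normoxia, with no overlap (-0.40, 95% confidence interval -0.61 to -0.20, limma adjusted p = 0.0109). GUSB (0.13), the beta-glucuronidase often used as a reference gene, NEU1 (0.072), a sialidase, and LIPA (-0.19), the acid lipase of cholesteryl esters, did not pass.

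Proteins that present lipids to these enzymes or carry cholesterol out of the lysosome were among the 4 of 7 membrane and transport genes that rose. PSAP, the precursor of the saposins that activate sphingolipid hydrolases, gave 5382, 5626 and 5647 in hypoxia, against 3922, 3973 and 4042 in normoxia (0.48, 95% confidence interval 0.35 to 0.61, limma adjusted p = 0.000924). NPC1, the membrane protein of cholesterol export, gave 1399, 1304 and 1245 in hypoxia, against 883, 989 and 900 in normoxia (0.50, limma adjusted p = 0.00314). NPC2, the soluble protein that hands cholesterol to NPC1, gave 4625, 4850 and 4944 in hypoxia, against 3350, 3596 and 3668 in normoxia (0.44, limma adjusted p = 0.00264). For all 3 genes every hypoxia array lay above every normoxia array. Another probe set of PSAP rose by 0.33, and 2 of the other 3 of NPC1 rose, by 0.43 and 0.99.

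The ion channel MCOLN1 (TRPML1), which releases calcium from lysosomes, fell the most of all 53 genes. It gave 53.0, 96.7 and 90.2 in hypoxia, against 165, 184 and 179 in normoxia (-1.03, 95% confidence interval -1.51 to -0.55, limma adjusted p = 0.00779). Hypoxia array 0 was the lowest, and without it the change was -0.81 and the call was kept (limma adjusted p = 0.0014). The main membrane glycoproteins did not pass: LAMP1 was at 7215 ± 360 in hypoxia and 8073 ± 243 in normoxia (-0.16, limma adjusted p = 0.102), and LAMP2 was at 3077 ± 110 in hypoxia and 2761 ± 62.9 in normoxia (0.15, limma adjusted p = 0.0870). Of the other 3 probe sets of LAMP1, the 2 dimmest each fell by 0.53, and the mean over all 4 was at -0.35 (limma adjusted p = 0.00487). CD63, a tetraspanin of lysosomes and exosomes, was at 5468 ± 366 in hypoxia and 4579 ± 263 in normoxia (0.25, limma adjusted p = 0.0491). Its call was lost without any one array other than hypoxia array 0, at limma adjusted p = 0.0579 to 0.143. Of the 7 membrane and transport genes, 4 rose (57.1%), 1 fell (14.3%) and 2 did not pass, against 16.9% risen and 20.6% fallen of all genes. Their median change was 0.25.

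**Figure D3:**
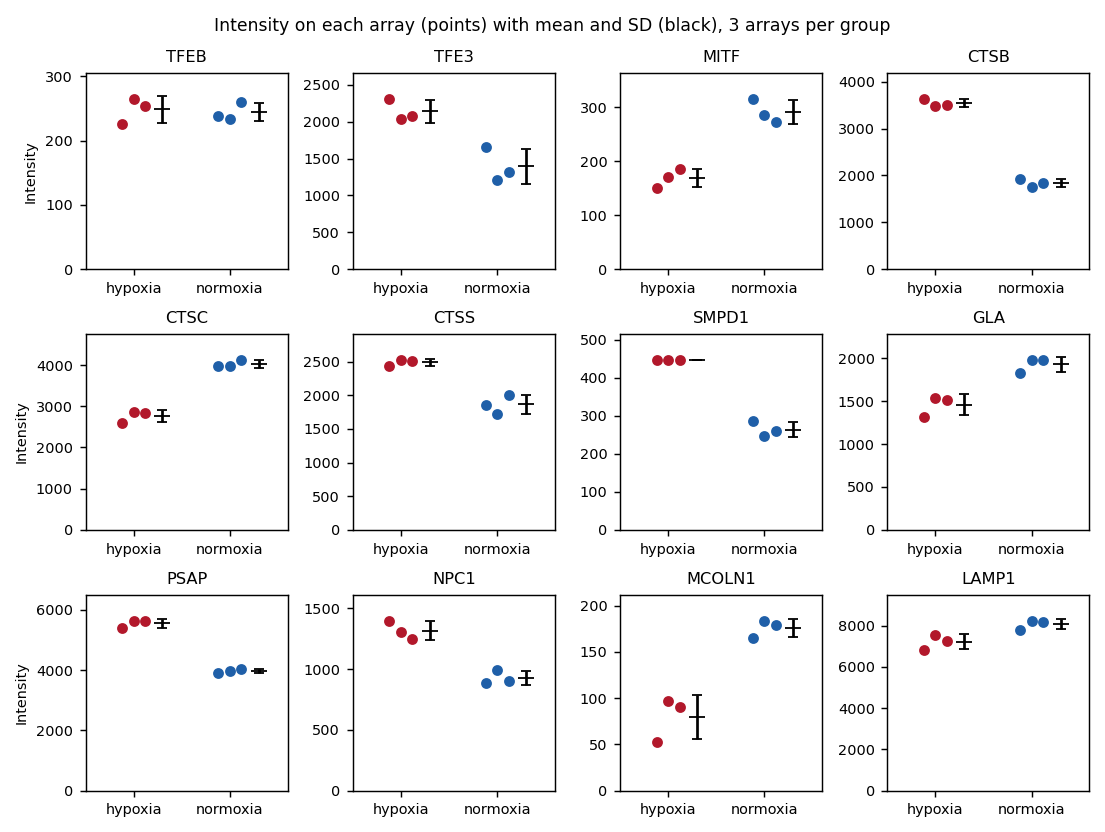
Intensity (linear, y axis from 0) of 12 lysosomal genes on each of the 3 hypoxia and 3 normoxia arrays, with the mean and SD in black. CTSB, CTSS, SMPD1, PSAP, NPC1 and TFE3 are higher on all hypoxia arrays, MITF, CTSC, GLA, MCOLN1 and LAMP1 are lower, and TFEB overlaps.

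Set side by side, the proton pump had a median change of -0.016 with 5 of 22 genes risen and 6 fallen, the cathepsins 0.11 with 2 of 10 risen and 2 fallen, and the other hydrolases 0.18 with 4 of 8 risen and 1 fallen. Over all genes the median change was -0.00016, with 16.9% risen and 20.6% fallen. Dim genes were 1 of the 22, 1 of the 10 and 0 of the 8, against 7239 of all 19775. The classes and all genes are therefore not of like brightness. Without genes below 64 in both groups, 64.8% of all genes were called. The pump counts leave out TCIRG1, which rose by 0.81. No test was made between these classes. The median absolute change was 0.25 for the pump, 0.23 for the cathepsins, 0.28 for the other hydrolases and 0.25 for all genes.

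Agreement between probe sets was examined for the 31 lysosomal genes read by several. Their p-values were adjusted over all 41091 probe sets with 1 symbol, of which 15.8% rose and 18.0% fell. Of the 121 probe sets of the 53 genes, 29 rose and 26 fell. Of 19 genes past the threshold with several probe sets, 12 had another one past it in limma in the same direction and 0 in the opposite direction, also 0 at an unadjusted p under 0.05. Of 12 such genes that did not pass, 4 had another probe set that did: ATP6V0E1, ATP6V1C1 and LAMP1, with falls, and ATP6V1H, with a rise of 0.50.

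**Figure D4:**
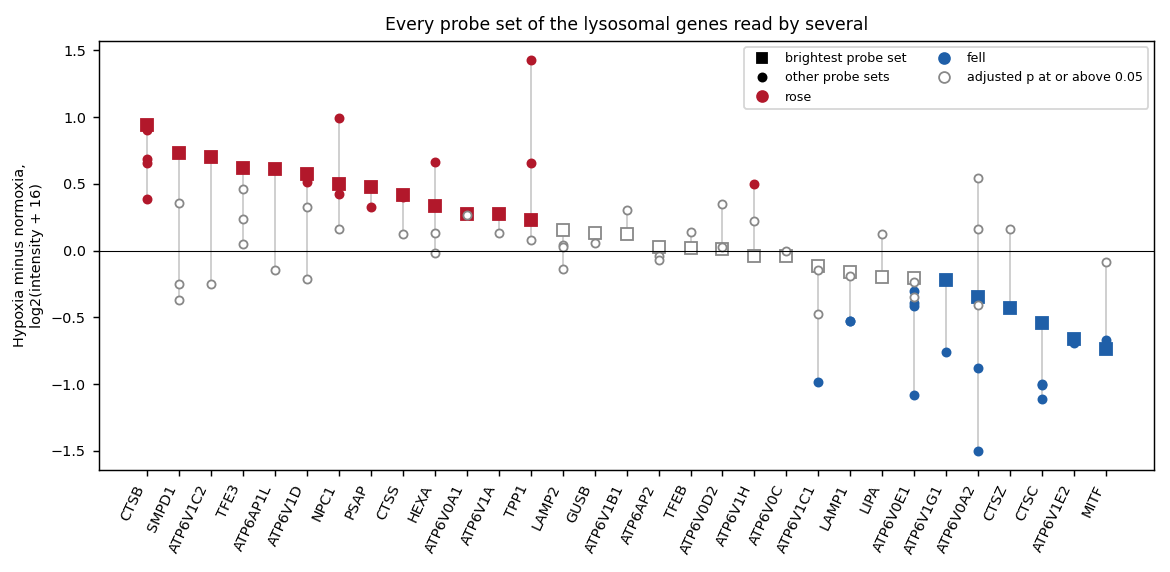
Change of log2(intensity + 16), hypoxia minus normoxia (y axis), of every probe set of the 31 lysosomal genes read by several, with squares for the brightest probe set of each gene and circles for the others. Filled symbols passed over all probe sets; the 5 of CTSB are all above 0 and the 4 of CTSC all below, while those of TPP1 run from 0.078 to 1.43.

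Further genes of lysosomes and of their sorting, inhibition and regulation, taken from 7 lists that do not include the 53, moved in both directions too. Of 98 measured genes, 29 rose, 20 fell and 49 did not pass, with a median change of 0.10. That is 29.6% and 20.4%, against 16.9% and 20.6% of all genes. Dim genes, with a mean below the lowest array median in both groups, were 9 of the 98, against 7239 of all 19775. The shares are therefore not over genes of like brightness. The largest rises in these lists were those of 2 proteases. LGMN, legumain, which cleaves after asparagine and processes cathepsins, gave 5108, 5256 and 5414 in hypoxia, against 1411, 1376 and 1387 in normoxia (1.91, limma adjusted p = 2.07e-05). CTSK, the cathepsin known for bone collagen breakdown by osteoclasts, gave 369, 439 and 409 in hypoxia, against 109, 119 and 121 in normoxia (1.67, limma adjusted p = 6.14e-05). Of 10 further proteases, 3 rose (with PRCP at 0.39) and 1 fell (CTSV, at -0.59). The call of PRCP was lost when its probe sets were averaged (0.16, limma adjusted p = 0.114). Of 6 cathepsin inhibitors, 0 passed in limma, also 0 at an unadjusted p under 0.05, at changes of -0.41 to 0.050; 4 of the 6 (CST6, CST7, CSTA and SERPINB1) were dim in both groups.

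Of 23 further hydrolases, 9 rose (39.1%), 4 fell (17.4%) and 10 did not pass, against 16.9% risen and 20.6% fallen of all genes. Their median change was 0.12. FUCA1, alpha-fucosidase, rose by 0.69 (2241 ± 46.3 in hypoxia and 1388 ± 43.6 in normoxia), a call lost when its probe sets were averaged (0.29, limma adjusted p = 0.199). IDS, a sulfatase of glycosaminoglycan breakdown, rose by 0.60 (0.31 when its probe sets were averaged, limma adjusted p = 0.0350). ARSB, arylsulfatase B, fell by 1.46, with 45.8 ± 12.2 in hypoxia and 153 ± 21.6 in normoxia, and NAAA, an acid amidase, fell by 0.83. Averaged over their probe sets, ARSB was at -0.49 (limma adjusted p = 0.0114) and NAAA at -0.47 (limma adjusted p = 0.00172). Of 11 genes that tag and sort hydrolases by mannose 6-phosphate, 1 rose (9.1%), 3 fell (27.3%) and 7 did not pass. The 2 receptors went opposite ways: IGF2R rose by 0.45 (2616 ± 208 in hypoxia and 1911 ± 156 in normoxia, limma adjusted p = 0.0109) and M6PR fell by 0.70 (1457 ± 115 in hypoxia and 2379 ± 48.6 in normoxia, limma adjusted p = 0.000744). NAGPA, which uncovers the tag, fell by 0.60. AP1B1, an adaptor subunit, fell by 0.33, and lost its call without hypoxia array 0 or 1 or normoxia array 0 or 2 (limma adjusted p = 0.0610 to 0.0791).

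Of 26 further membrane proteins, 9 rose (34.6%), 8 fell (30.8%) and 9 did not pass, against 16.9% risen and 20.6% fallen of all genes. LAMP3, a relative of LAMP1 known from dendritic cells, fell by 2.13, with 54.7, 79.8 and 80.0 in hypoxia against 414, 324 and 359 in normoxia (limma adjusted p = 0.000183). CTNS, the cystine exporter, fell by 1.21 and CLN6, an endoplasmic reticulum protein linked to lysosomal storage disease, by 1.17, while SIDT2 rose by 1.25. Averaged over their probe sets, CTNS was at -0.71 (limma adjusted p = 0.00405) and CLN6 at -0.35 (limma adjusted p = 0.00562). Of 7 genes of the pump and its partners outside the symbol rule, the a3 subunit gene TCIRG1 rose. VMA21, which helps to assemble V0, and WDR7 fell. WDR7 fell by 0.74, or by 0.31 when averaged (limma adjusted p = 0.0124). VMA21 was at 1474 ± 20.6 in hypoxia and 3678 ± 199 in normoxia (-1.31, limma adjusted p = 5.61e-05), a fall that rests on its brightest of 3 probe sets, since their mean was at -0.18 (limma adjusted p = 0.223). Of 15 genes in a list of regulators of TFEB and TFE3 that also holds their relative TFEC, 6 rose (40.0%), 2 fell (13.3%) and 7 did not pass. Among them, the Rag GTPase genes RRAGD and RRAGB rose by 0.81 and 0.84 and FNIP1, a partner of folliculin, by 0.41, and TFEC, a relative of TFEB, rose by 1.04 on its brightest probe set (0.17 with the mean of 3, limma adjusted p = 0.227). RRAGD was at 4314 ± 80.9 in hypoxia and 2464 ± 144 in normoxia.

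**Figure D5:**
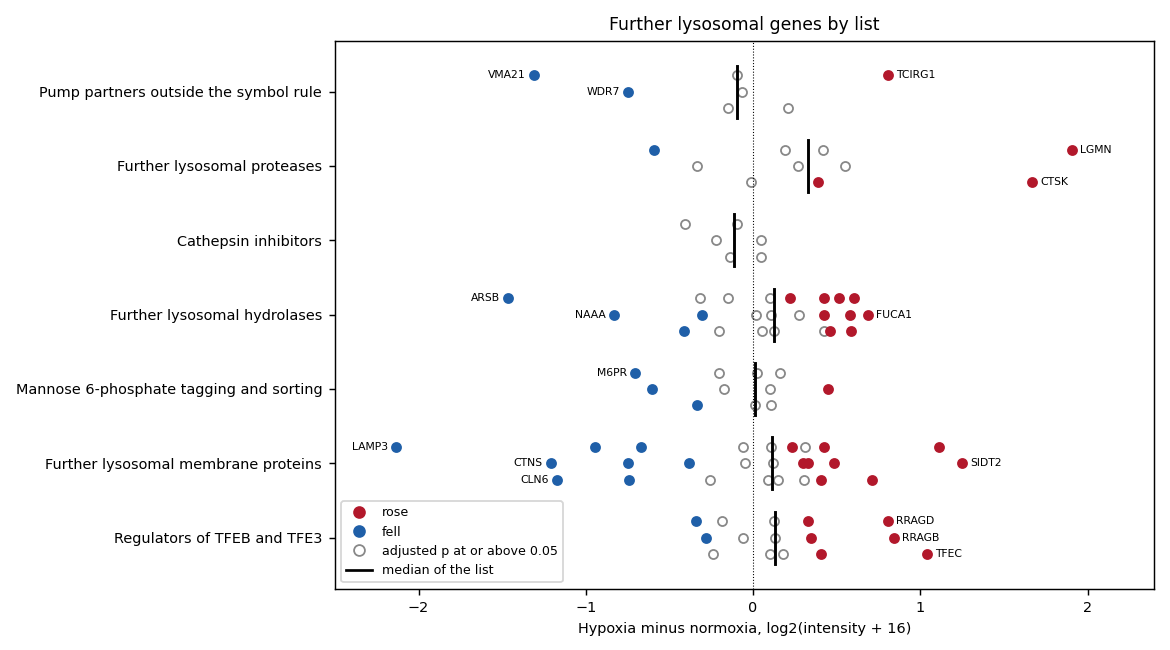
Change of log2(intensity + 16), hypoxia minus normoxia (x axis), of 98 further genes in 7 lists related to lysosomes, with a point per gene and a bar at the median of each list. The list medians lie between -0.12 and 0.33, and single genes run from -2.13 (LAMP3) to 1.91 (LGMN).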

How the data were processed

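The deposited table gives 1 linear intensity per probe set for each of the 6 arrays (54613 probe sets). Background correction, probe summary and array scaling by the authors are not given in the sources used here. RNA was extracted with the RNeasy kit and made into biotin-labelled cRNA, per the labels' protocols. In the platform annotation used here 41091 probe sets had a single symbol, 1801 had several and 11721 had none, and symbols were updated through Entrez identifiers in RefSeq (41037 matched). Each gene was read by its brightest single-symbol probe set, by mean log2 value over all arrays. Between pairs of arrays 1.07% to 1.23% of values were identical, so each array counted as 1 sample. There were no detection calls, so dim values may be background; precision is limited by the number of arrays.

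Hypoxia was compared with normoxia on log2(intensity + 16) by a two-sided limma test (version 3.58.1, R 4.3.3; lmFit, eBayes) without covariates, with Benjamini-Hochberg adjustment over all genes and, separately, over all probe sets. The procedure was also run on simulated data with independent noise and few changed genes. That setting is unlike these data, so it does not measure the error rate here. Alternatives were pseudocounts of 1 and 64, leaving out genes below 64 in both groups, median centring, quantile normalization, averaging the probe sets of a gene, the replicate number as a block, an intensity trend, and leaving out each array. The genes and lists were chosen with earlier results of these data known. By rule, values on every array are given for the transcription factors and for up to 14 risen and 14 fallen genes with the largest changes whose groups did not overlap, and up to 4 genes are named per further list.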

Additional observations from a re-analysis of the deposited data

How the results depend on the processing

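Of the 28 genes called, 16 kept their call and direction under each of the 14 alternatives: NPC1, PSAP, NPC2, MCOLN1, CTSB, CTSS, CTSC, GLA, ATP6V0A2, ATP6V0B, ATP6V0E2, ATP6V0D1, ATP6V1D, ATP6V1G2, ATP6V1E2 and MITF. Among these, NPC2, MCOLN1, GLA, ATP6V0B, ATP6V0E2, ATP6V0D1 and ATP6V1G2 have 1 probe set each, so averaging probe sets could not alter their change. Leaving out each array gave 10 to 17 risen genes in all. In the pump it gave 3 to 5 (3 without normoxia array 1 or 2), and among other hydrolases 1 to 4. Median changes were 0.029 to 0.14 over all 53 genes and -0.0013 to 0.13 for the cathepsins. Over all genes, 2771 to 3291 rose when an array was left out, against 3335 with all arrays. Averaging probe sets left 12 risen genes, 1 fallen cathepsin and 2 risen hydrolases, and ended the calls of ATP6V1A (0.20, limma adjusted p = 0.120) and HEXA (0.28, 0.0516). It gave 2 fallen membrane and transport genes, LAMP1 being the added one. Leaving out genes below 64 in both groups and an intensity trend each did so too. The cathepsin median was 0.16 and 0.056 with pseudocounts of 1 and 64. It was 0.053 without genes below 64 in both groups, where CTSL and CTSF were no longer counted. ATP6V1H, at -0.041 on its brightest probe set, was at 0.23 when its probe sets were averaged (limma adjusted p = 0.0334), since a dimmer one rose. Median centring moved the median of all genes to -0.035 and ended the calls of CD63 and ATP6V1A (limma adjusted p = 0.0503 and 0.0506), and quantile normalization that of ATP6V1G1 (-0.15, limma adjusted p = 0.0601). Deviations of same-numbered arrays correlated at 0.24, 0.0064 and 0.21, and those of arrays with different numbers at -0.25 to 0.11. Hypoxia arrays 0 and 2 correlated best with their own number, and hypoxia array 1 with another. These values do not settle whether the arrays are paired. The main fit took no pairing, and the replicate block was run as an alternative. With the replicate block 17 genes rose and 11 fell: the call of TPP1 was lost (limma adjusted p = 0.0667) and ATP6AP1 passed (0.0176). Of the probe sets of the 53 genes, 31 rose and 25 fell with it. The arrays give no counts, so the lowest level that could be told from background is not known.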

Other observations

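The 4 probe sets of TPP1 differed in size of change: the brightest was at 0.23, and the dimmest was at 1.43, with 138 in hypoxia and 41.0 in normoxia. The 6 of ATP6V0A2 ran from -1.50 to 0.55, with 109 in hypoxia and 336 in normoxia for the one that fell the most. Which transcript forms these probe sets read was not examined.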
